A study of Mus musculus with 113 samples.

Results

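The 150 genes with the largest gain in expression between the 2-cell (2C) and 8-cell (8C) stage of mouse embryos were described, out of 24006 genes listed in the files. For each gene, the median log2(FPKM + 1) of 15 control embryos at 2C was subtracted from that of 16 control embryos at 8C, where FPKM are fragments scaled for how long a transcript is and for how many fragments were mapped in that library. The control embryos had received either base editor mRNA or guide RNA alone. Ribosomal protein, proteasome, respiratory chain, initiation factor, *Klf*, keratin, *Id* and small nucleolar RNA genes (539 in all) had been set aside by symbol, which left 23467 genes to choose from. The difference ran from 8.03 for *Bhmt* to 3.69 for the last gene taken, with a median of 4.09 on the log2 scale. Just inside the limit stood *Fgf3* (3.70), *Lrpap1* (3.70) and *Snhg14* (3.69), and just outside it *Abhd11os* (3.69), *Tmem55a* (3.69) and *Ftsj3* (3.69). These values chose the genes and are given as a description.

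The series examined which nuclear receptor transcription factors drive the transcription program of early embryos, and all embryos came from superovulated C57BL/6N females mated with PWK/PhJ males and carry the genotype label wild type. Pools of embryos that had received siRNAs were sequenced with the Smart-seq2 protocol, which copies full transcripts from few cells, with 2 pools in each group. Single embryos had received base editor mRNA (BE), which makes C-to-T changes, an sgRNA that introduces a stop codon in exon 3 of *Nr5a2*, or both (BE + sgRNA), with 8, 8 and 14 embryos at each of the 2C and 8C stages. Of 113 samples, the 92 with FPKM values were used and the other 21 were not analysed here.

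The siRNA groups were the following. At 8C, *Nr5a2*, *Rarg*, *Nr1h3* or *Nr2c2* was knocked down alone (single KD, 5 µM siRNA) and compared with pools that received 5 µM of a negative control siRNA (NC). In a second 8C experiment, 3 of the 4 siRNAs were injected together (3KD, 5 µM each) with an NC of 15 µM. In another experiment, all 4 were injected (4KD, 5 µM each) with an NC of 20 µM, and embryos were taken at the 4-cell (4C) and 8C stage. At 2C, *Nr5a2* siRNA and NC siRNA were both used at 20 µM. BE mRNA and sgRNA were injected at 100 ng/µl. In the single embryos the editor acts in each embryo separately, so that edited alleles can differ between cells and embryos, and the edited reads themselves were not analysed here.

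The mouse genome is transcribed in a major wave at the 2C stage, and a further set of genes is switched on as the embryo divides to 4 and 8 cells. At about this time the blastomeres begin to build cell junctions, take up more nutrients and raise protein synthesis, before the trophectoderm and the inner cell mass are set apart. NR5A2 is an orphan nuclear receptor that binds DNA as a monomer at an extended form of the nuclear receptor site and is known for roles in pluripotent cells, liver and steroid-producing tissues.

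Library sums of FPKM ran from 83392 to 556462, and the files do not tell how many reads stand behind a value. In the column names of 3 single-embryo libraries, sgRNA replicate 8 at 2C and BE + sgRNA replicates 13 and 14 at 8C, the stage is given as 4-cell, and BE + sgRNA replicate 8 at 8C had the lowest FPKM sum of all. Results on BE + sgRNA embryos at 8C are given with and without their doubtful libraries. The sgRNA replicate 8 at 2C took no part in the choice of the genes or in any comparison of groups. The siRNA target *Nr5a2* had a mean of 49.5 FPKM in the 8C single NC pools and 11.2 FPKM in the *Nr5a2* KD pools. In the 3KD experiment it was at 37.0 FPKM in NC, 4.5 to 7.4 FPKM in the groups with *Nr5a2* siRNA and 38.5 FPKM in the group without it. At 8C its mean was 28.7 FPKM in NC and 5.4 FPKM in 4KD embryos, and at 2C it was 21.9 FPKM in NC and 4.4 FPKM in *Nr5a2* KD embryos. On mm9, the build of the files, *Nr5a2* lies on the minus strand at chr1:138740161-138857004. All of these are bulk values, in which fewer cells of a type and less RNA per cell cannot be told apart.

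In the control embryos that chose them, the 150 genes went from a median of 2.2 FPKM at 2C to 69.9 FPKM at 8C. For 19 of them the 2C control median was listed at 0, for 42 it was under 1 FPKM, and 28 already stood at 10 FPKM or more. At 8C, 57 genes had a control median of at least 100 FPKM and 18 of at least 500 FPKM, the highest being *Fbxo15* with 3386 FPKM.

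Among the 15 genes with the largest difference, *Bhmt*, the enzyme that makes methionine from homocysteine and betaine, stood at a median of 0.877 FPKM in 2C and 491 FPKM in 8C controls. *Isyna1*, the first enzyme of inositol synthesis, went from 6.16 to 1457 FPKM, *Fbp2*, the muscle form of fructose bisphosphatase, from 0.798 to 235 FPKM, and *Gulo*, which catalyses the last step of vitamin C synthesis, from 2.55 to 244 FPKM. Others were listed at 0 in the 2C median: *Sycn*, a zymogen granule protein (221 FPKM at 8C), the pantetheinase *Vnn1* (75.3 FPKM), the tight junction protein *Cldn4* (67.6 FPKM), the pre-B cell gene *Vpreb3* (58.9 FPKM), the sphingomyelinase relative *Smpdl3a* (51.5 FPKM) and *Bloc1s1*, a subunit of a lysosome-related organelle complex (48.6 FPKM). The surface protein *Ly6a* went from 0.969 to 176 FPKM, the cytochrome *Cyp2s1* from 0.400 to 111 FPKM and the mitochondrial creatine kinase *Ckmt1* from 0.479 to 98.6 FPKM. *Rpph1*, the RNA subunit of RNase P (10.4 to 720.2 FPKM), and *Hspa8*, the constitutive Hsp70 chaperone (19.8 to 1228 FPKM), completed the list.

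The share of all FPKM that fell on the 150 genes was 1.53 to 2.02% in the 2C NC pools, 6.25 to 7.13% in the 4C NC pools and 7.61 to 9.35% in the 8C NC pools of the 3 experiments. Among the siRNA groups at 8C it was lowest in *Nr5a2* KD, with 5.10 to 6.31%, and in the groups that combined *Nr5a2* siRNA with others it was 5.99 to 7.24%, against 8.29 to 10.1% in the KD groups without *Nr5a2* siRNA. By these shares most of the gain lay before the 4C stage. Across the NC pools of different experiments, the median rise was 2.83 from 2C to 4C and 0.70 from 4C to 8C on the log2(FPKM + 1) scale, and 140 of the 150 genes gained more in the first interval. *Sycn* (7.05), *Bhmt* (6.90) and *Fbp2* (6.51) had the largest differences from 2C to 4C, whereas 48 genes were still at least 2-fold higher at 8C than at 4C. These 2C pools belong to another experiment, so the first interval was not tested.

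**Figure D1:**
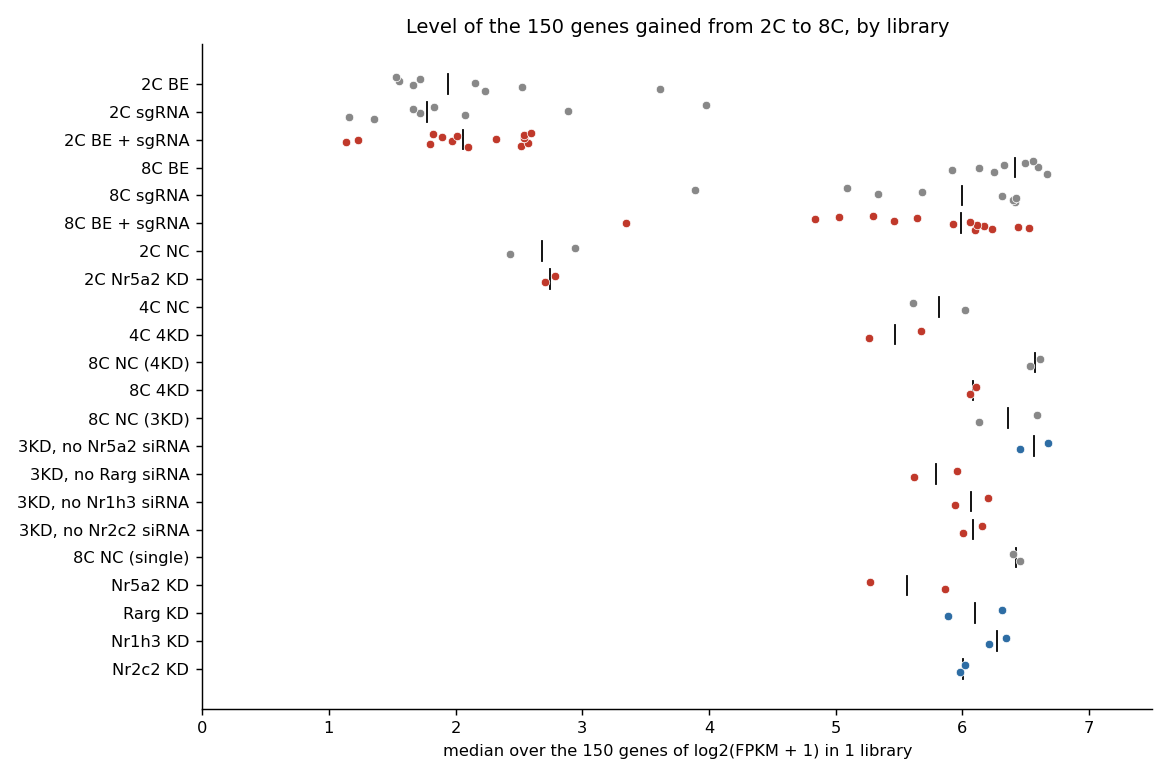
Median log2(FPKM + 1) over the 150 genes (horizontal axis) in each library, with 1 row per group; each point is a pool or a single embryo, grey for NC or single-component controls, red for libraries that received *Nr5a2* siRNA or BE + sgRNA, blue for other KD, and the black tick is the group median. The group medians of the 2C rows lie to the left of those of the 4C and 8C rows, and among the 8C BE + sgRNA embryos the library with the lowest FPKM sum stands apart at 3.35.

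To ask whether the gain was present in embryos that played no part in choosing the genes, BE + sgRNA embryos at 8C were compared with those at 2C (14 against 14, limma over 11788 genes). All 150 genes were higher at 8C, with a median change of 3.24 against -0.26 over all genes tested. With an adjusted p below 0.01 and a log2 change of 2 or more in size as limits, 147 were called higher, while 18.5% of all genes were called and 7.13% were called higher. The lowest 8C embryo exceeded the highest 2C embryo for 43 of them, or 28.7% against 1.60% of all genes. The 3 genes not called were *Gm11517* (1.60), *Acp5* (1.56) and *H2-Q9* (1.24), all with an adjusted p under 0.05. The means of 29 genes were under 1 FPKM in the 2C embryos, so these passed the filter through the 8C group and had to differ, and the counts above are a description. Over the 10968 genes with a mean of at least 1 FPKM in the 2C embryos, a filter chosen after seeing the data, 118 of 121 members were called higher at these limits (median 3.22), against 6.47% of all these genes called higher and 12.2% lower.

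*Sycn* was listed at 0 in all 14 edited 2C embryos and lay between 7.32 and 457 FPKM at 8C, with a median of 173.5 FPKM. *Bhmt* lay between 0 and 2.42 FPKM at 2C (median 0.480) and between 24.1 and 401 FPKM at 8C (median 267), a log2 change of 6.69 ± 0.38 (SE, limma). *Fbp2* was at 0 to 3.95 FPKM at 2C (median 0.721) and 24.5 to 378 FPKM at 8C (median 179), a change of 6.24 ± 0.36. In each of these genes no 2C embryo reached the level of any 8C embryo. *Sycn* and *Bhmt* had means under 1 FPKM at 2C and passed the filter through the 8C embryos alone, as did *Smpdl3a*, *Ckmt1*, *Vnn1*, *Tdgf1* and *Gata6* below, so their changes are given as a description. Changes of 5.44 and 4.74 bounded the next 9 genes without overlap, among them the synaptic vesicle protein *Syngr1* (5.44), *Smpdl3a* (5.36), *Ckmt1* (5.20), *Vnn1* (5.06), the ferric reductase *Frrs1* (5.04), the fatty acid oxidation enzyme *Acadl* (4.88), *Gulo* (4.86) and *Cyp2s1* (4.74). The Nodal co-receptor *Tdgf1* lay between 0 and 1.88 FPKM at 2C, with 10 embryos at 0, and between 3.05 and 194 FPKM at 8C (5.08 ± 0.45). *Gata6*, a transcription factor of the primitive endoderm, changed by 4.52 ± 0.33, and *Tead4*, a transcription factor of the trophectoderm, by 3.68 ± 0.33.

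The gain in BE + sgRNA embryos held in both sets of libraries, but with fewer calls in one. Column names and library numbers separate libraries made with an editor named eBE from those with BE4, and libraries with a 4-cell column name were placed in neither set. Within eBE 146 of the 150 genes were called higher (median 3.69), against 9.69% of all genes called higher and 14% lower. Within BE4 it was 125 (median 3.07), against 4.82% higher and 12.3% lower. Without the libraries with a 4-cell column name and that of the lowest FPKM sum, all but 2 were called higher (8.84% of all genes) and the median was 3.59. With the set of libraries as a term, 147 were called higher (median 3.34), against 6.85% of all genes. Maternal transcripts (18 markers, none among the 150 genes) summed to between 119 and 1253 FPKM in the 8C BE + sgRNA embryos, against 43.8 to 124 FPKM in the 8C BE and 42.9 to 264 FPKM in the 8C sgRNA controls, and their part in the result was not tested.

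Of the 150 genes, 45 belonged to at least 1 of 29 lists of cell functions and 105 to none. In the comparison of edited 8C with 2C embryos, these lists as a whole were counted at an adjusted p under 0.05, where 27.6% of all genes were higher and 39.9% lower. In cytosolic chaperones, which fold new proteins, 20 of 21 tested genes rose and none fell (list median 1.8). Its 4 members here, *Hspa8* (4.04), *Hsp90ab1* (3.70) and the chaperonin subunits *Cct4* and *Cct7*, had a median of 3.39. Of the 12 genes of translation elongation 11 rose (list median 2.48), with *Gnb2l1*, a scaffold on the small ribosomal subunit, at 4.56, beside *Eef2*, *Eef1g* and *Eef1e1*. Of 77 mitochondrial ribosome genes 50 rose and 2 fell (1.45), and of 34 genes of nucleotide and one-carbon metabolism 22 rose and 8 fell (2.06). The members of the latter are *Bhmt*, the IMP dehydrogenases *Impdh1* and *Impdh2*, the salvage enzymes *Hprt* and *Aprt*, and the thymidylate synthase *Tyms*.

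Other lists moved in both directions. Among adhesion and junction genes 17 of 43 rose and 13 fell (list median 0.28), while *Cldn4* changed by 4.86, the gap junction protein *Gja1* by 4.39 and the desmosome protein *Perp* by 4.74. *Gja1* lay between 0.110 and 9.60 FPKM in edited 2C embryos and between 14.1 and 266 FPKM at 8C, without overlap. Solute carriers fell more often than they rose (96 against 58 of 205), and histone genes were split (30 higher, 22 lower of 76). TCA cycle genes rose in 14 of 23 and fell in 2, and trophectoderm markers rose in 10 of 17 and fell in 3. Of the pluripotency genes 15 of 22 rose and 1 fell. The members were chosen for their gain, so their medians cannot be read against those of their lists.

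The step from 4C to 8C could be tested in the NC and 4KD pools of 1 experiment, where 149 of the 150 genes passed the filter (10476 genes tested; *Hist1h2ak* did not). In NC embryos 135 of 149 were higher at 8C, or 90.6% against 48.5% of all genes, with a median of 0.72 against -0.01. For 76 of them both 8C pools exceeded both 4C pools, or 51.0% against 16.2% of all genes. None was called by limma at either limit, adjusted p under 0.05 or the stricter pair, as for all genes (0%). An unadjusted p under 0.05 was found for 37 of 149 members and 776 of 10476 genes. With 2 pools in each group an exact permutation test cannot go below p = 0.333.

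The steps after 4C were largest in *Dap* (3.27 ± 1.19), *2200002D01Rik* (3.04 ± 0.81) and *Hmga2* (2.93 ± 0.73), a chromatin architectural protein, none of which overlapped between the stages. By the log2(FPKM + 1) of the group means, the steps were 1.90, 2.70 and 2.68 in the same order. The first rank of *Dap* thus depended on how the 2 pools per group were averaged. *Cldn4* was at 6.19 and 5.36 FPKM at 4C and at 63.3 and 23.2 FPKM at 8C (2.55 ± 0.54, adjusted p = 0.282, limma). *Ly6a* was at 96.3 and 75.2 FPKM at 4C and at 314 and 376 FPKM at 8C (2.00 ± 0.41, adjusted p = 0.259). Both genes stood well above their 4C levels in both 8C pools, although neither passed the test over all genes.

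In 4KD embryos the same step was 0.61 in the median, with 119 of 149 genes higher (79.9% against 48.0% of all genes) and 71 higher without overlap (47.7% against 17.5%). None was called (0% of all genes, limma), and 24 of 149 members and 803 of 10476 genes had an unadjusted p under 0.05. The difference between the steps in 4KD and in NC had a median of -0.18, and 95 of 149 genes gained less in 4KD, or 63.8% against 49.7% of all genes. No member was called for this difference (0% of all genes, limma). At an unadjusted p under 0.05 there were 4 of 149 members and 259 of 10476 genes, a similar share. The sign of this median depended on 1 library, since it was 0.08 without NC replicate 2 at 4C.

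In embryos with a knockdown of *Nr5a2* alone, most of the 150 genes were lower at 8C. All 150 were tested among 10163 genes, and 127 were lower than in NC, or 84.7% against 63.1% of all genes, with a median log2 change of -0.79 against -0.22. Both KD pools lay below both NC pools for 93 of the genes (62.0% against 33.1%) and above them for 5 (3.33% against 12.9%). At the same pair of limits 15 were called, 14 lower and 1 higher, while 0.689% of all genes were called, 0.669% lower and 0.0197% higher. At an adjusted p under 0.05 with any change, 27 were called, 26 lower and 1 higher, against 2.75% of all genes, 2.39% lower and 0.354% higher. An unadjusted p under 0.05 was found for 72 of 150 members and 1835 of 10163 genes. These p-values measure only the spread between pools, which are not said to come from separate matings. The 15 calls needed all 4 libraries: when any 1 was left out, almost none remained at the stricter limits. In these fits the lone pool was assumed to vary like the other groups. The 27 calls became fewer as well, and fewest when an NC pool was left out. This describes members only, without the share over all genes.

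**Figure D2:**
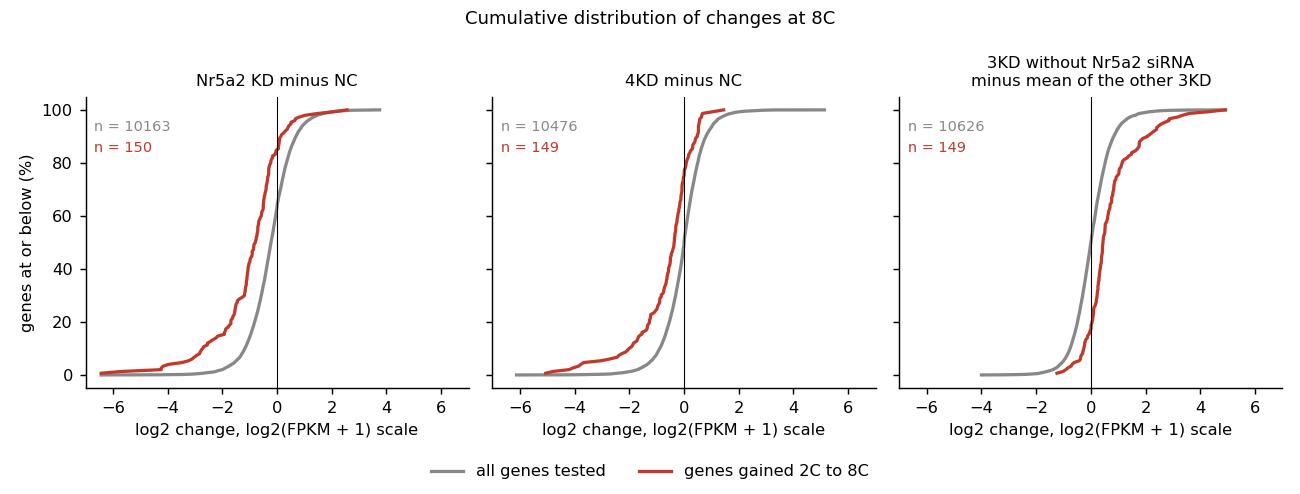
Cumulative percentage of genes (vertical axis) by log2 change (horizontal axis) for *Nr5a2* KD against NC, 4KD against NC at 8C, and 3KD without *Nr5a2* siRNA against the mean of the other 3KD groups; red shows the members tested (150, 149 and 149) and grey all genes tested (10163, 10476 and 10626). The red line lies to the left of the grey one in the first and second panel (member medians -0.79 and -0.35) and to the right in the third (0.44).

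The called genes fell into several kinds of proteins. The largest fall was in *Khdc3*, a component of the maternal subcortical complex that is also expressed in pluripotent cells. It stood at 320.3 and 264 FPKM in the NC pools and at 2.14 and 2.67 FPKM in the *Nr5a2* KD pools (-6.43 ± 0.46, SE; limma, adjusted p = 0.000146). *Prl3b1*, placental lactogen II of the prolactin family, stood at 86.6 and 109 FPKM in NC and at 0.510 and 1.46 FPKM in KD (-5.67 ± 0.46, adjusted p = 0.000296). In both genes the KD pools were close to the 1 FPKM pseudocount, so the fold is understated on this scale. *Prl3b1* was the 1 member with a mean under 1 FPKM in *Nr5a2* KD. It passed the filter only through groups where it was higher and had to be lower here, so its change is given as a description. In the other single KD pools *Khdc3* ranged from 102 to 318 FPKM, with both *Rarg* KD and both *Nr1h3* KD pools below the NC pools. *Prl3b1* ranged from 37.2 to 121 FPKM there, with both *Nr2c2* KD pools below the NC pools. Neither gene was called in these groups.

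The calcium-binding protein *S100a3* was at 18.9 and 56.9 FPKM in NC and at 0 and 2.25 FPKM in KD (-4.23 ± 0.61, adjusted p = 0.00561). *Pramel5*, a PRAME family gene, was at 331 and 279 FPKM in NC and at 7.16 and 34.7 FPKM in KD (-4.16 ± 0.56, adjusted p = 0.00402). *Tdgf1* was at 33.0 and 87.5 FPKM in NC and at 5.68 and 0.854 FPKM in KD (-3.96 ± 0.60, adjusted p = 0.00645). Each KD pool lay below each NC pool in these genes, while the pools of 1 group also differed from each other. Other single KD pools held 70.1 to 131 FPKM of *Tdgf1*. *Prl3b1*, *Pramel5* and the histone genes belong to families of related genes, and reads may be shared where copies are similar.

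Among metabolic enzymes, *Bhmt* fell from 562 and 524 FPKM to 76.3 and 91.8 FPKM (-2.68 ± 0.34, adjusted p = 0.00344). *Gulo* was at 218 FPKM in both NC pools and at 41.2 and 25.3 FPKM in KD (-2.72 ± 0.36, adjusted p = 0.00402), and the galactokinase *Galk1* fell from 136 and 182 FPKM to 32.0 and 28.8 FPKM. *Vnn1* (-2.55) and *Isyna1* (-1.61) were called at an adjusted p under 0.05 only. *Isyna1* stood at 1968 and 1311 FPKM in NC and at 485 and 566 FPKM in KD. The KD pools of *Bhmt* and *Gulo* were close to each other, and the groups stood far apart.

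The remaining calls at the stricter limits were the caspase *Casp6* (-3.49), the LIM domain protein *Crip2* (-3.24), the lens protein *Crygs* (-2.95), the F-box protein *Fbxl20* (-2.54) and the genes *2310040G24Rik* (-3.03) and *Gm11517* (-2.84). *Crip2* was at 239.6 and 160.0 FPKM in NC and at 15.3 and 25.6 FPKM in KD. *Gm11517*, which is annotated as a pseudogene, was at 2478 and 3177 FPKM in NC and at 239 and 643 FPKM in KD. The other single KD pools held 3750 to 6910 FPKM of it. The creatine transporter *Slc6a8* (-2.43), the transcription factor *Sox15* (-1.51), *Vpreb3* (-4.23), *Serpinb6a* (-3.11), *1500009L16Rik* (-2.81), *Fig4* (-2.77), *Calcoco2* (-2.17), *Tmem242* (-1.75), *Parp8* (-1.69) and *Nt5c3b* (-1.45) were also called lower at an adjusted p under 0.05. *Ifitm2*, an interferon-induced membrane protein with close copies in the genome, was the single gene that rose, from 47.2 and 109.8 FPKM to 414 and 443 FPKM (2.55 ± 0.39, adjusted p = 0.00661). Its level was also 168 to 221 FPKM in the other single KD pools, above both NC pools.

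Other genes with a large gain at 8C differed less between the groups. *Sycn* was at 199 and 205 FPKM in NC and at 151.4 and 204 FPKM in *Nr5a2* KD (-0.20), and *Fbp2* at 249.9 and 305 FPKM and 149 and 314 FPKM (-0.35). *Hspa8* differed by -0.34. Of the lineage factors, *Gata6* was at 55.6 and 67.8 FPKM in NC and at 9.86 and 24.0 FPKM in KD (-1.92, adjusted p = 0.0621, limma), and *Tead4* at 70.1 and 57.0 FPKM and 36.6 and 24.4 FPKM (-1.06, adjusted p = 0.237). For both genes the groups did not overlap and the test was not passed. *Gja1* (-0.91, adjusted p = 0.158) and *Cldn4* (-2.22, adjusted p = 0.0851) showed the same.

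By function, few genes of the lists were called at an adjusted p under 0.05, where 2.39% of all genes were lower and 0.354% higher. In nucleotide and one-carbon metabolism 2 of 34 genes were lower and 2 higher (list median -0.46), with 5 of the 6 members lower in direction. The TCA cycle list had 2 lower of 23 (list median -0.70) and its members *Pdha1* and *Suclg1* were both lower in direction without a call. Among adhesion genes 2 of 37 fell (list median -0.29), among solute carriers 7 of 173 fell and 1 rose, and among pluripotency genes 3 of 22 fell (list median -0.68). Of the trophectoderm list 2 of 16 fell (list median -0.59), and of the primitive endoderm list 1 of 6 fell (list median -1.85). No gene of the mitochondrial ribosome (77 tested), cytosolic chaperone (21), elongation (12), nucleolus (50) or splicing list (65) was called. Histone genes were higher in direction, with a list median of 1.03 and no call among 75. Of their 5 members, 4 were higher, such as *Hist1h2ap* at 69.8 and 12.9 FPKM in NC and 156 and 115 FPKM in KD (2.1, adjusted p = 0.14, limma).

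Other measures moved with the *Nr5a2* KD pools. Maternal transcripts summed to 126 to 158 FPKM in KD and 74.0 to 111 FPKM in NC. The trophectoderm list (22 genes, 1 of them a member) summed to 289 to 315 FPKM in KD and 1039 to 1078 FPKM in NC. A list of 6 blood cell markers summed to 32.3 to 79.8 FPKM against 10.2 to 18.6 FPKM, with *Hbb-b1* and *Ptprc* listed at 0 in all 8C pools, and their part in the result was not tested. When the libraries were scaled to equal median ratios, the median of all genes moved from -0.22 to 0.01 and that of the members to -0.48, with 117 of 150 lower. The calls at an adjusted p under 0.05 were then 17 lower and 1 higher, against 2.05% of all genes lower and 0.889% higher, and 7 lower members were called at the stricter limits (0.425% of all genes lower). After quantile normalization the member median was -0.58, with 25 lower and 1 higher at an adjusted p under 0.05, against 2.26% of all genes lower and 0.886% higher.

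Promoter sequences are shown for the genes in which the extended NR5A2 site, CAAGGTCA, was found. RefSeq windows on GRCm38.p6 from 250 bases before to 50 bases after the start were at hand for 119 of the 150 genes, and for 21 of the 26 that fell in *Nr5a2* KD. CAAGGTCA on either strand was found in 2 members, *Bhmt* and *Prl3b1*, or 1.68% against 1.48% of all 17952 genes with a window. Both belong to the 21, of which they make up 9.52%, and the other 98 had none. The 250 bases upstream of the start of both genes are given 5′ to 3′ on the gene's strand, with the match in capitals, for *Bhmt* (chr13:93637759-93638008, minus strand) and *Prl3b1* (chr13:27242180-27242429, plus strand).
Bhmt: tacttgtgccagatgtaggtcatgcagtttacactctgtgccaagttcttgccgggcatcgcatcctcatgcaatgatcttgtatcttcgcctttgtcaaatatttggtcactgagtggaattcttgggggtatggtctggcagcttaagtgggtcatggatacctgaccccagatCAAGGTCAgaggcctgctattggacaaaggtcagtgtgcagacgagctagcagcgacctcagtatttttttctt
Prl3b1: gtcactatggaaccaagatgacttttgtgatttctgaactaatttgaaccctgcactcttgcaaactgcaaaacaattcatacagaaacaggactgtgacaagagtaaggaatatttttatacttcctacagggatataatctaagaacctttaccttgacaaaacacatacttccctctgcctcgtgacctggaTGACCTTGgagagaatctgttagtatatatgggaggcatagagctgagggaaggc
The match begins 74 bases before the RefSeq start in *Bhmt*, on the same strand as the gene. On mm9 the printed *Bhmt* bases lie at chr13:94407714-94407963, while *Bhmt* in the GENCODE vM1 annotation reaches up to 94407916 on the minus strand. By that annotation the match lies within the gene. In *Prl3b1* it begins 55 bases before the start and lies on the opposite strand, so that the strand printed above reads TGACCTTG. The shorter AAGGTCA, which every CAAGGTCA contains, was in 6 members (5.04% against 4.67% of all genes). TATAAA was in 16% of the members and 14.4% of all genes, CCAAT in 45.4% and 42.3%, and GGGCGG in 51.3% and 49.8%, each searched on both strands. A match is a description of letters and not of binding.

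The other single KDs share the NC pools with the *Nr5a2* KD. In *Rarg* KD 118 of 150 genes were lower in direction, against 5815 of all 10163 genes, with a median of -0.35 (all genes -0.08). Of the members 56 were lower without overlap (37.3% against 19.6% of all genes). In *Nr2c2* KD 120 were lower (80% against 71.8%) with a median of -0.38 (all genes -0.24), 70 of them without overlap (46.7% against 33.9%), while 7 were higher without overlap (4.67% against 6.38%). In *Nr1h3* KD 99 were lower (66% against 48.8%) and 51 higher (34% against 50.4%), with a median of -0.16 (all genes 0.00), and 53 were lower without overlap (35.3% against 18.9%). No member was called by limma in any of the 3 at an adjusted p under 0.05, where 0.00984%, 0.0787% and 0.00984% of all genes were called for *Rarg*, *Nr2c2* and *Nr1h3*. At an unadjusted p under 0.05 there were 17 members for *Rarg*, 12 for *Nr2c2* and 9 for *Nr1h3*, against 382, 426 and 297 of all 10163 genes. Median-ratio scaling brought the *Nr2c2* median to -0.07.

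To set *Nr5a2* KD apart from siRNA injection of another target, it was compared with the mean of the other 3 single KDs, which does not use the NC pools but does use the same *Nr5a2* KD pools. The median was -0.50 against -0.13 over all genes, and 114 of 150 were lower (76% against 59.1%) and 36 higher (24% against 40.8%). All *Nr5a2* KD pools lay below all pools of the other KDs for 56 members (37.3% against 13.6%) and above them for 4 (2.67% against 5.67%). At the stricter limits 16 members were called, all lower, against 0.994% of all genes, 0.925% lower and 0.0689% higher. At an adjusted p under 0.05 there were 27, again all lower (3.16% of all genes lower, 0.787% higher). The changes of *Khdc3* (-5.66 ± 0.38, adjusted p = 5.5e-05, limma), *Prl3b1* (-5.28 ± 0.38), *Tdgf1* (-4.71 ± 0.49) and *Gm11517* (-3.67 ± 0.33) were, with that of *S100a3* (-4.37), the 5 largest, and *Bhmt* differed by -2.16 ± 0.28. As above, *Prl3b1* passed the filter only through groups other than *Nr5a2* KD, so its change is a description. *Ifitm2* was 1.15 higher (adjusted p = 0.0718, limma) and was not called. Leaving out any 1 library gave fewer calls of members at the stricter limits, which is stated without the share over all genes.

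**Figure D3:**
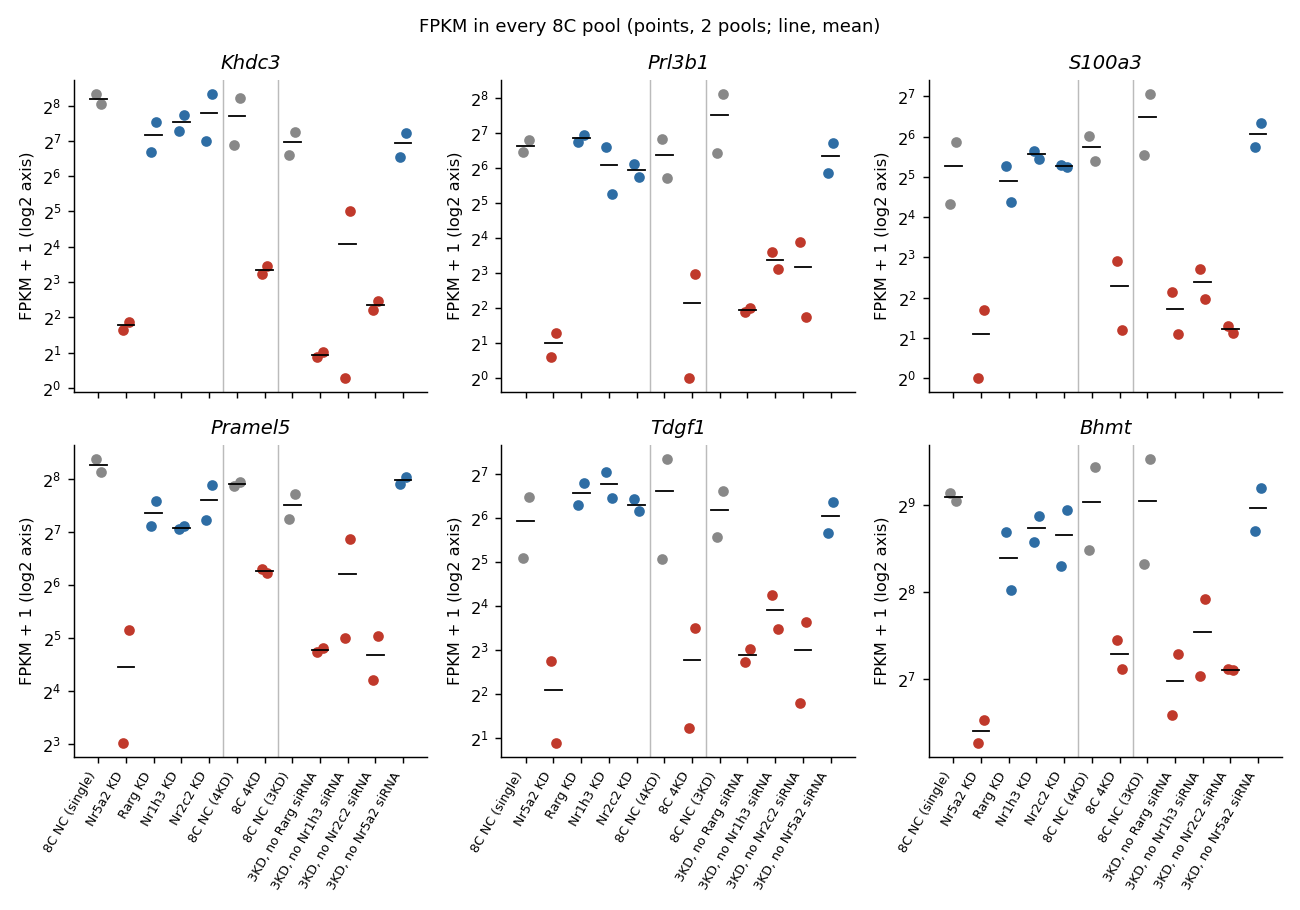
FPKM + 1 on a log2 axis (vertical) of *Khdc3*, *Prl3b1*, *S100a3*, *Pramel5*, *Tdgf1* and *Bhmt* in every 8C pool of the 3 siRNA experiments (horizontal); points are the 2 pools of a group and the line is their mean. Groups that received *Nr5a2* siRNA lie below their NC in all 6 panels. The 3KD group without *Nr5a2* siRNA differs from its NC by a log2 change of -0.99 in *Prl3b1*, 0.49 in *Pramel5* and -0.25 to 0.02 in the rest.

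The 3KD experiment asked the same question by leaving out 1 siRNA at a time (149 of 150 members among 10626 genes; *Hist1h2ak* was not tested). Without *Nr5a2* siRNA the members were 0.27 above NC in the median (all genes 0.13), with 109 higher, against 6477 of all 10626 genes. In the groups that kept *Nr5a2* siRNA the median was -0.35 without *Rarg*, -0.25 without *Nr1h3* and -0.26 without *Nr2c2* siRNA, while all genes were at 0.11 to 0.12. In the same order 108, 95 and 97 members were lower, against 4410, 4429 and 4466 of all 10626 genes. These 4 comparisons share their NC pools. The counts without overlap were 47 lower (31.5% against 12.5% of all genes), 36 (24.2% against 12.2%) and 47 (31.5% against 12.3%), and 7 (4.7% against 7.13%) without *Nr5a2* siRNA. The sign of the median without *Nr5a2* siRNA rested on 1 library, being -0.06 without NC replicate 1.

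At an adjusted p under 0.05, 2 members were called without *Rarg* siRNA, against 0.0565% of all genes. They were *Prl3b1* (-5.34 ± 0.73) and *S100a3* (-4.68 ± 0.62), both at adjusted p = 0.0341 by limma, and no member was called when any 1 of the 4 pools was left out. None was called without *Nr1h3* (0.00941% of all genes), *Nr2c2* (0%) or *Nr5a2* siRNA (0%). In the same order, 24, 29 and 2 members had an unadjusted p under 0.05, against 739, 783 and 251 of all 10626 genes. Libraries with the same replicate number deviated together in this experiment (r = 0.278 to 0.513). In the fit with the number as a replicate block, 11 members were called without *Rarg* siRNA (0.423% of all genes), 5 without *Nr1h3* (0.329%), 11 without *Nr2c2* (0.612%) and 0 without *Nr5a2* siRNA (0%). *Khdc3*, for example, changed by -5.99 ± 0.86 without *Rarg* siRNA in the blocked fit (adjusted p = 0.0136, limma). Its mean in that group was 0.924 FPKM, so it passed the filter only through groups where it was higher. This change is therefore given as a description.

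The group without *Nr5a2* siRNA was then compared with the mean of the other 3KD groups, which received the same number of siRNAs. Of 149 members 124 were higher (83.2% against 49.7% of all genes), with a median of 0.44 against 0, and 48 were higher without overlap (32.2% against 8.59%). At an adjusted p under 0.05, 6 were called, all higher, against 0.282% of all genes: *S100a3* (4.32 ± 0.51), *Prl3b1* (3.59 ± 0.60), *Pramel5* (2.86 ± 0.47), the protease inhibitor *Serpinb6a* (2.70 ± 0.41), *Fbxl20* (2.21 ± 0.36) and *Gulo* (1.83 ± 0.32). The adjusted p ranged from 0.0115 to 0.0428, and at most 1 member was called when any 1 of the 8 pools was left out. None was called at the stricter limits (0% of all genes), and 39 had an unadjusted p under 0.05, against 1075 of all 10626 genes. With the replicate block 22 members were called at an adjusted p under 0.05 (2.47% of all genes), *Khdc3* (4.91 ± 0.70) and *Bhmt* (1.77 ± 0.25) among them.

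*Prl3b1* was at 85.7 and 276 FPKM in the NC pools of this experiment and at 57.0 and 104 FPKM without *Nr5a2* siRNA. It was at 2.68 and 2.97 FPKM without *Rarg*, 11.1 and 7.65 FPKM without *Nr1h3*, and 13.8 and 2.33 FPKM without *Nr2c2* siRNA. *S100a3* was at 45.3 and 132 FPKM in NC, 52.5 and 80.3 FPKM without *Nr5a2* siRNA, and between 1.15 and 5.59 FPKM in the other 6 pools. The 6 pools with *Nr5a2* siRNA thus lay below the 4 others in both genes. *Khdc3* stood at 96.0 and 152 FPKM in NC and at 91.8 and 149 FPKM without *Nr5a2* siRNA, against 0.825 and 1.02 FPKM without *Rarg*, 0.215 and 31.6 FPKM without *Nr1h3*, and 3.58 and 4.53 FPKM without *Nr2c2* siRNA. *Bhmt* stood at 319 and 737 FPKM in NC, at 413 and 584 FPKM without *Nr5a2* siRNA, and at no more than 241 FPKM in the rest. Blood cell markers summed to 81.4 to 208 FPKM in the pools with *Nr5a2* siRNA, 22.8 to 24.6 FPKM in NC and 12.1 to 23.8 FPKM without *Nr5a2* siRNA, and maternal transcripts to 141 to 240 FPKM with *Nr5a2* siRNA and 98.4 to 121 FPKM in NC. Their part in the result was not tested.

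The 26 genes that fell in *Nr5a2* KD (adjusted p below 0.05) were followed in the libraries of the other experiments, as counts and without a test. In the 3KD groups with *Nr5a2* siRNA 24 to 25 of the 26 were lower than NC. Their medians were -1.94 without *Rarg*, -1.49 without *Nr1h3* and -1.8 without *Nr2c2* siRNA, against -0.25, -0.14 and -0.14 in the other members. Without *Nr5a2* siRNA 11 of the 26 were lower and 15 higher (median 0.33). In 4KD embryos all 26 were lower than NC at 4C (median -1.29, other members -0.20) and at 8C (median -1.8, other members -0.25). From 4C to 8C all 26 were higher in NC (median 0.99), and 16 in 4KD (median 0.34).

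In the 4KD experiment as a whole, 106 of 149 members were lower than NC at 4C (71.1% against 50.3% of all genes; median -0.27 against 0.00), 36 of them without overlap (24.2% against 15.3%). At 8C 111 were lower (74.5% against 48.9%; median -0.35), 61 without overlap (40.9% against 19.2%) and 9 higher without overlap (6.04% against 18.1%). None was called at either stage by limma, as for all genes (0%). An unadjusted p below 0.05 was found for 17 members at 4C and 32 at 8C, against 610 and 784 of all 10476 genes.

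Among the largest 8C differences without overlap, *S100a3* was at 63.9 and 41.4 FPKM in NC and at 6.45 and 1.30 FPKM in 4KD (-3.66 ± 0.65, adjusted p = 0.256, limma). *Crip2* was at 260.3 and 184 FPKM in NC and at 15.2 and 15.1 FPKM in 4KD (-3.77 ± 0.81). *Khdc3* was at 93.4 and 10.4 FPKM in NC and 0 and 5.41 FPKM in 4KD at 4C, and at 117 and 297 FPKM in NC and 8.38 and 10.0 FPKM in 4KD at 8C. *Prl3b1* was at 113 and 51.0 FPKM in NC and at 0 and 6.87 FPKM in 4KD at 8C, and *Tdgf1* at 32.8 and 162 FPKM and 1.34 and 10.3 FPKM. All of these were lower in both 4KD pools than in both NC pools.

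**Figure D4:**
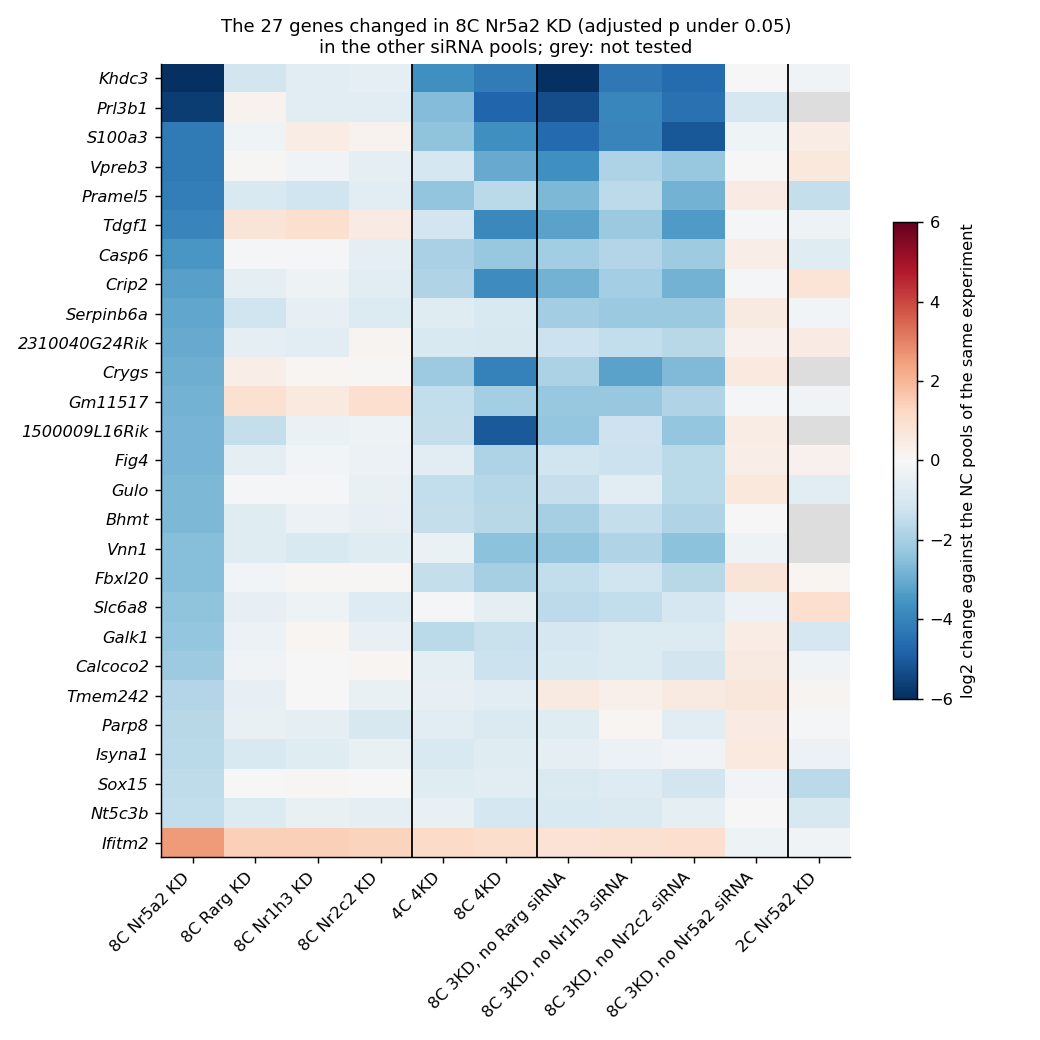
Log2 change against the NC pools of the same experiment and stage in 11 comparisons (columns) for the 27 members called (adjusted p below 0.05) in *Nr5a2* KD at 8C (rows); blue is lower, red higher, on a scale from -6 to 6, and grey was not tested. The columns of 3KD and 4KD groups that received *Nr5a2* siRNA are mostly blue for these genes, whereas the column of 3KD without *Nr5a2* siRNA holds 15 of the 26 lower genes above 0.

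At 2C, before most of the gain, *Nr5a2* KD was compared with NC for the 137 members that passed the filter (11958 genes). Of these 51 were lower and 86 higher, or 37.2% and 62.8% against 32.5% and 67.5% of all genes, with a median of 0.20 against 0.23. None was called by limma, against 0.0167% of all genes. An unadjusted p under 0.05 was found for 4 of 137 members and 558 of 11958 genes. This fit rested on 4 libraries, and the lack of calls does not show that the members were unchanged at 2C. *Pramel5* was at 30.2 and 19.8 FPKM in NC and at 14.9 and 4.46 FPKM in KD, without overlap. Of the 26 genes that fell at 8C, 21 were tested at 2C and 13 were lower (median -0.20). *Prl3b1* was listed at 0 in all 4 of the 2C pools.

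In single 8C embryos, BE + sgRNA was set beside the BE and sgRNA controls that had chosen the genes, so the values are given as a description and no test was made. The members were 0.36 lower in the median, with 130 of 150 lower and 10 lower by at least 1 on the log2 scale, while over 9598 genes the median was 0.04 and 45.2% were lower. The 26 genes that fell in *Nr5a2* KD had a median of -0.84 (24 lower) and the other members -0.31. Against BE controls alone the member median was -0.48 (140 lower, 93.3%), where all genes were at -0.06 (56.3% lower). Against sgRNA controls alone it was -0.02 (76 lower, 50.7%), where all genes were at 0.21 (30.0% lower). Of these controls, replicates 5 to 8 had FPKM sums of 207918 to 268257, against 428014 to 466564 in replicates 1 to 4. The median log2(FPKM + 1) over the members was 3.89 to 5.68 in replicates 5 to 8 and 6.31 to 6.42 in replicates 1 to 4. Replicates 5 to 8 are also the sgRNA controls within BE4, and their part in these differences was not tested. In sgRNA controls alone the 26 genes were at -0.40, with 21 lower.

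These differences also varied with the libraries used. Within the eBE libraries the members were at -0.16 (104 lower, 69.3%) and the 26 genes at -0.39 (21 lower), with all genes at 0.06 (43.7% lower). Within BE4 the members were at -0.29 (106 lower, 70.7%) and the 26 genes at -0.51 (21 lower), with all genes at -0.05 (55.0% lower). With the library of lowest FPKM sum left out the member median was -0.24, with all genes at 0.09 (39.4% lower). Without it and the libraries with a 4-cell column name the member median was -0.18 (110 lower, 73.3%). The 26 genes were then at -0.51 (24 lower) and all genes at 0.06 (42.8% lower). At 2C the edited embryos stood 0.29 above the 15 controls in the median, with 42 members lower and 94 higher. All genes were at 0.05 in this comparison (44.4% lower). With BE controls alone the member median at 2C was 0 (65 lower, 72 higher), where all genes were at -0.01. With sgRNA controls alone it was 0.37 (37 lower, 99 higher), where all genes were at 0.10. The 15 controls had also chosen the genes, so these 2C values are a description.

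*Khdc3* lay between 0.596 and 166 FPKM in edited 8C embryos, with a median of 61.9 FPKM, and between 14.4 and 435 FPKM in the 16 controls, with a median of 212 FPKM. Of the edited embryos 4 lay below all controls and the rest within their range. *Pramel5* had medians of 78.0 and 207 FPKM (18.1 to 285 and 23.7 to 307 FPKM), *Tdgf1* of 44.8 and 91.0 FPKM (3.05 to 194 and 1.29 to 217 FPKM) and *Bhmt* of 267 and 491 FPKM (24.1 to 401 and 30.6 to 819 FPKM). *Prl3b1* was at 0 to 90.1 FPKM (median 16) in edited embryos and 4.43 to 99.0 FPKM (median 28.7) in controls. The ranges of edited and control embryos overlapped in all of these genes. *S100a3*, which fell in the siRNA pools, had a higher median in edited embryos (28.2 against 19.3 FPKM). *Gata6* stood at medians of 34.5 and 45 FPKM, *Tead4* at 59.4 and 57.4 FPKM, and *Gja1* at 125 and 202 FPKM.

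**Figure D5:**
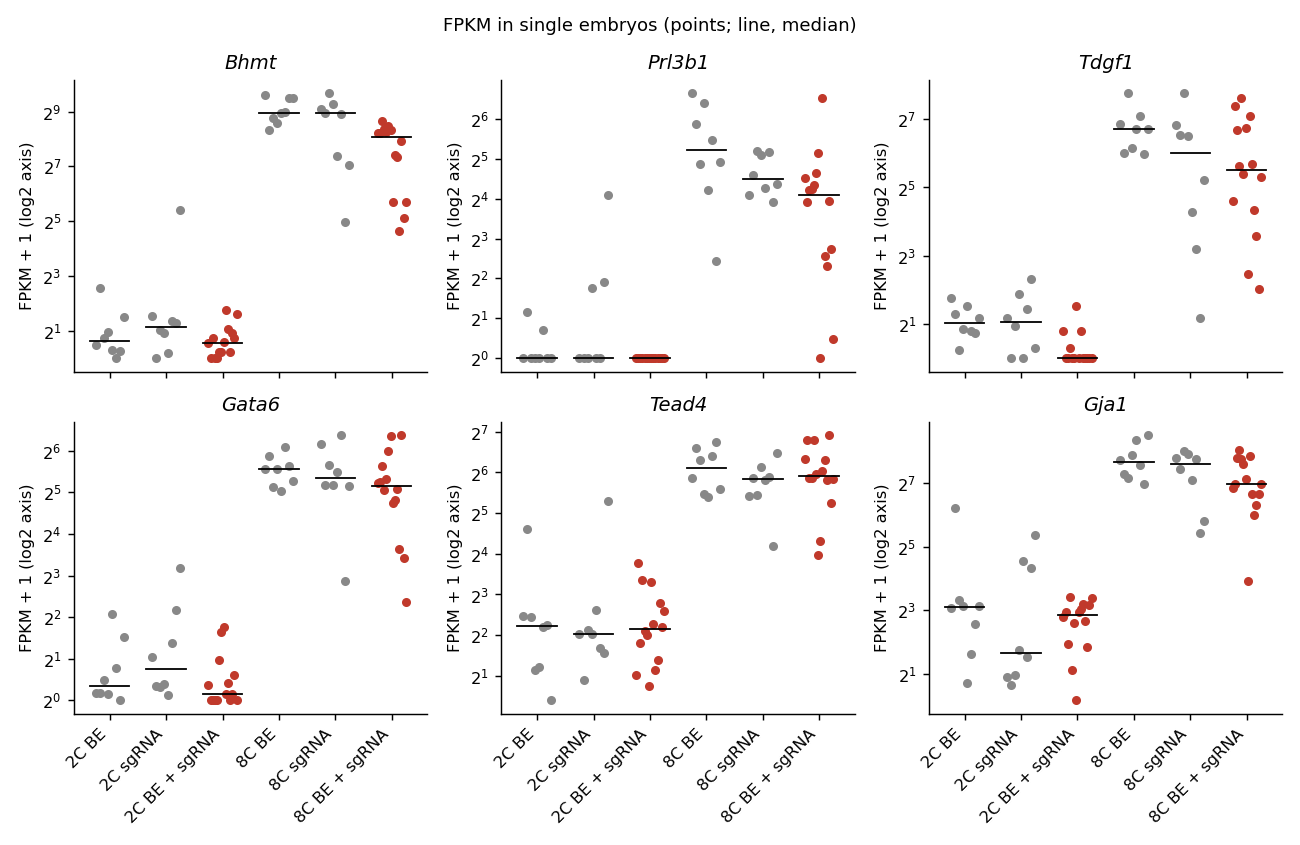
FPKM + 1 on a log2 axis (vertical) of *Bhmt*, *Prl3b1*, *Tdgf1*, *Gata6*, *Tead4* and *Gja1* in single embryos injected with BE, sgRNA or BE + sgRNA at 2C and 8C (horizontal); points are embryos and lines group medians. The 8C groups lie above the 2C groups, and the 8C BE + sgRNA points overlap those of both control groups.

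Membership in the study's gene lists and genome positions were counted next, as a description. In lists of stage-specific genes that the study defined on other embryos, 18 members were late 2C genes (12% against 2.32% of all genes), 5 were 4C genes (3.33% against 0.0625%) and 3 were 8C genes, while 123 were in no list. The 4C genes were *Sycn*, *Crygs*, *Prl3b1*, *S100a3* and *Nipsnap3b*. Of the genes of major genome activation 29 were members (19.3% against 4.60%), and 120 members were in no genome activation list. For these lists all genes are the 24006 listed, expressed or not. The study's stage lists hold genes that are silent before a stage and active at it. Overlap of the 4C and 8C lists with genes chosen for a gain from 2C to 8C is therefore largely set by the rule. Positions on mm9 (GENCODE vM1) were found for 139 members, 137 of them protein coding. Chromosome 13 held 14 (10.1% against 3.77% of all genes) and chromosome 11 held 18 (12.9% against 7.87%). Among 8 pairs of members within 100 kb of each other were *Bhmt* and *Dmgdh*, enzymes of adjacent steps in betaine breakdown, 36472 bases apart, and *Smyd5* and *Cct7*, 5070 bases apart.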

How the data were processed

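Smart-seq2 libraries of mouse embryos were analysed from the FPKM that the authors deposited. According to their methods, the authors used TopHat with the mm9 genome and then Cufflinks to compute FPKM per gene on the UCSC refFlat annotation. FPKM hold no read counts, so depth is unknown and no interval for counting error is given. The tests used log2(FPKM + 1) and limma (version 3.58.1, under R version 4.3.3), a scale that understates the change of low genes. Each experiment had 1 fit, on genes with a mean of at least 1 FPKM in at least 1 of its groups, with a trend in the prior variance and Benjamini-Hochberg adjustment over all genes tested. Calls were made when the adjusted p was below 0.01 and the log2 change 2 or more in size, limits taken from the study's methods, and also at an adjusted p under 0.05. Single-embryo libraries were split into eBE and BE4 by the editor in the column name or, for sgRNA alone, by library number, and those with a 4-cell column name were put in neither set. The genes and lists were chosen with earlier results of these data known. Named genes were the 15 with the largest gain, those next to the limit, up to 12 per comparison with the largest change, up to 4 per list and those the study names. Gene lists of stages and genome activation came from the study. The guide and siRNA sequences were not used here. Figures were drawn with matplotlib 3.10.9 in Python 3.11.15. Alternatives were another pseudocount, other filters on low values, median-ratio scaling, quantile normalization, no trend, other sizes and forms of the rule that chose the genes, fewer groups in the fit, a replicate block and leaving out each pool. After the data had been seen, fits within the eBE and BE4 libraries, without doubted libraries, on genes expressed at 2C and with crossed replicate numbers were added. Replicate numbers were taken to pair the pools where deviations from the group means correlated above 0.1 in every pair. With the numbers as deposited this held in the 3KD experiment (median r = 0.334 over 10 pairs), while in the 4KD experiment pairs within a stage were above 0.1 and pairs across stages below -0.1. The fits were tested on simulated data. 1 item was not reported here.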

Additional observations from a re-analysis of the deposited data

Results flagged for a closer look

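In sgRNA replicate 8 at 2C the 150 genes took 4.49% of the FPKM sum, against 0.350 to 2.70% in the other 15 control embryos at 2C. This embryo stood apart from the other 7 of its group by more than chance alone gives in about 1 of 20 groups. Of 8 groups and measures examined in this way it was the 1 that stood out, and the column name of its library gives the 4-cell stage. It was left out of the choice of the genes, and it took no part in any test.

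The change with *Nr5a2* siRNA ran in opposite directions at 2C and 8C, without overlap between KD and NC at either stage, for 3 genes that fell at 8C. At 2C *Crip2* was 0.80 higher in KD (12.7 and 7.54 FPKM in NC, 19.7 and 16.2 FPKM in KD) and at 8C it was at -3.24. *Slc6a8* was 1.00 higher at 2C (1.20 and 2.38 FPKM in NC, 4.28 and 4.68 FPKM in KD) and at -2.43 at 8C. *2310040G24Rik* was 0.48 higher at 2C (103 and 119 FPKM in NC, 154 and 155 FPKM in KD) and at -3.03 at 8C. By limma the 2C differences had unadjusted p-values of 0.0778 to 0.21 and an adjusted p = 0.89, and none was called. At 2C 27.3% of all 11958 genes were higher in KD without overlap, and the median over all genes was 0.23. The difference between the stages was not tested, since the pools belong to separate experiments with different siRNA amounts.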

How the results depend on the processing

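In *Nr5a2* KD at 8C the member median was -0.48 with median-ratio scaling, -0.58 with quantile normalization and -0.50 when no symbol was dropped, and -1.02 to -0.67 when 1 pool was left out. The 15 calls became 13 with a pseudocount of 0.1, 0 without a filter, 20 from 5 FPKM, 9 without a trend, 7 with median-ratio scaling, 6 with quantile normalization, 11 over 100 and 21 over 300 genes, 14 with 2 groups in the fit, and 13 with means in the rule or no symbol dropped; the cause was not tested. In *Nr2c2* KD the median was -0.075 with median-ratio scaling and -0.15 with quantile normalization. Against the other single KDs it was -0.24 with no symbol dropped, and calls were 3 without a filter, 12 with median-ratio scaling and 13 with quantile normalization. At 2C quantile normalization gave 0.0027, and between edited 8C and 2C embryos a pseudocount of 0.1 gave 4.02. The counts of calls in this paragraph are of members only and stand without the share over all genes.

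Leaving out 1 pool gave medians of -0.54 to -0.13 for *Rarg* KD, -0.24 to -0.09 for *Nr1h3* KD, -0.48 to -0.25 for *Nr2c2* KD, -0.66 to -0.30 for *Nr5a2* KD against the other KDs, -0.56 to -0.046 for 4KD at 4C, -0.43 to -0.34 at 8C, 0.49 to 0.98 for the stage step in NC and 0.32 to 0.73 in 4KD, -0.52 to 0.085 for their difference, and 0.010 to 0.43 at 2C. For 3KD they were -0.061 to 0.37 without *Nr5a2* siRNA, -0.56 to -0.11 without *Rarg*, -0.45 to -0.03 without *Nr1h3*, -0.50 to -0.11 without *Nr2c2* siRNA, and 0.40 to 0.63 against the other 3KD groups.

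With the replicate number as a block the 3KD calls rose as given above. In the single KD pools same-numbered libraries did not pair (r = -0.04 to 0.14). The block gave 16 calls for *Nr5a2* KD and 19 against the other KDs, counted in members only without the share over all genes. At 2C the numbers did not pair either (r = 0.0043). In the 4KD experiment r was 0.346 at 4C and 0.336 at 8C but -0.297 to -0.271 across the stages, which suggests crossed numbers between them, and with crossed numbers as a block there were no calls at the stricter limits. The block moved no other count of calls by over 1.5 times. The unknown depth and the 2 pools per group limit what can be called among low genes.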
